A study of Mus musculus with 6 samples.

Results

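The testis-specific serine kinases Tssk1 to Tssk6 were followed in whole testes of Prss37KO and WT mice. The members were all probes whose gene name, or a synonym of it, was one of these 6 symbols, which gave 6 genes and 8 probes among the 27343 names and 41174 probes of the array. Testes of 3 male Prss37KO mice and 3 male WT mice of the C57BL/6 strain background, all 6 to 8 weeks old, had been measured on 1 single-colour Agilent mouse array each. The labels state neither which stretch of Prss37 was removed nor how, 1 label field of the knockout samples names Prss55 instead, and samples were grouped by title. The study set testes labelled as Prss37 knockout, Prss37 being a trypsin-family serine protease gene of the testis, against WT testes, and both names are used here as the labels give them.

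Testis-specific serine kinases belong to the AMPK-related branch of the protein kinases. They are made almost entirely in male germ cells, mostly after meiosis, when round spermatids elongate, condense their chromatin and build the flagellum. In mice, Tssk1 and Tssk2 act in late spermatids together with their substrate Tsks, and males that lack both kinases are infertile. Tssk6 is needed for chromatin condensation in spermatids, Tssk3 for male fertility and Tssk4 for normal sperm motility. These kinases are also regulated as proteins, by phosphorylation and by chaperones, which an RNA array does not measure.

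Which transcript each value stands for follows from the probe, so the first 30 of the 60 bases of each tested probe are shown as the files give them.
Tssk1: ggccactgagccctcatggatccctgaacc
Tssk2: tttcttccacttagtagcaaagccattaat
Tssk3: ggccttcaatcgaagaagttagttggcacc
Tssk4, brighter probe: ctgaggcaggaggccaaggaaaaaagcaag
Tssk4, dimmer probe: aaacccagaaggaggtcactttcccagcta
Tssk5: atgctgcctgcagaacacatgctgtcctct
Tssk6: gaacgatgcaaatccttgatcgccgagctg
The files place these probes, on mm9, at chr16:17895321-17895380 (Tssk1, plus strand), chr16:17900050-17900109 (Tssk2, plus strand) and chr4:129166305-129166364 (Tssk3, minus strand). The Tssk4 probes lie at chr14:56271292-56271351 and chr14:56270634-56270959, both on the plus strand. The Tssk5 probe lies at chr15:76202685-76202833 on the minus strand and the Tssk6 probe at chr8:72426918-72426977 on the plus strand. The dimmer Tssk4 probe spans 326 bases and the Tssk5 probe 149 bases of the genome for their 60 bases, so each crosses at least 1 splice junction. The best ungapped alignment of any kinase probe to another probe of the array had 30 to 32 of 60 bases identical, and that held for the neighbours Tssk1 and Tssk2 too. Probes were compared with probes and not with whole transcripts, so whether a probe also binds the transcript of another kinase was not tested.

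An array value here is the log2 processed signal of a probe minus the 75th percentile of its array, so 0 is the level of a spot brighter than 75% of the spots. Between 69.2% and 71.4% of spots were well above background on each array and 0 were saturated. Replicates 1 and 2 of both genotypes shared slide 1 and a scan, and both replicates numbered 3 shared slide 2 and another scan, so values within slides are given as well. The Prss37 signal averaged 70144 ± 668 in Prss37KO and 117720 ± 12808 in WT testes (SD, n = 3 each), which is -0.71 on the log2 scale, 1.63-fold lower in Prss37KO (limma adjusted p = 0.024). This signal remained well above background in all 3 samples labelled Prss37KO, so the signal at the probe was lowered and not absent. Whether the probe reads Prss37 alone was not examined, and whether it lies in the removed stretch is not known. Prss55 averaged 52597 ± 878 in Prss37KO and 60478 ± 9455 in WT testes (SD, n = 3 each), with an adjusted p of 0.362. A gene was called at an adjusted p under 0.05 over all 18975 genes tested, and 467 genes (2.46%) were called, 1.21% higher and 1.25% lower in Prss37KO. Prss37 was among them, but was not called in 7 of 19 alternative settings, where its limma adjusted p reached 0.132. Its log2 difference ran from -0.76 to -0.66 over these settings.

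None of the kinases was called: 0 of 6, against 2.46% of all genes. At an unadjusted limma p under 0.05 there were 2 of 6, Tssk2 and Tssk5, against 23.9% of all genes. The log2 values of the genotypes did not overlap for the same 2 of 6 (33.3%), against 31.6% of all genes, a share near the background. The differences of 4 kinases lay above 0 and those of 2 below 0. Their median was 0.16, against -0.002 for all genes, and the median size of the difference was 0.187, against 0.091 for all genes. No call was made for any of the 6 under the 19 alternatives that gave a test, among them the model with slide as a term (0.416% of all genes called) and the one with the replicate number as a block (0.0105%). In a whole testis, fewer cells of a type and less RNA per cell cannot be told apart.

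**Figure D1:**
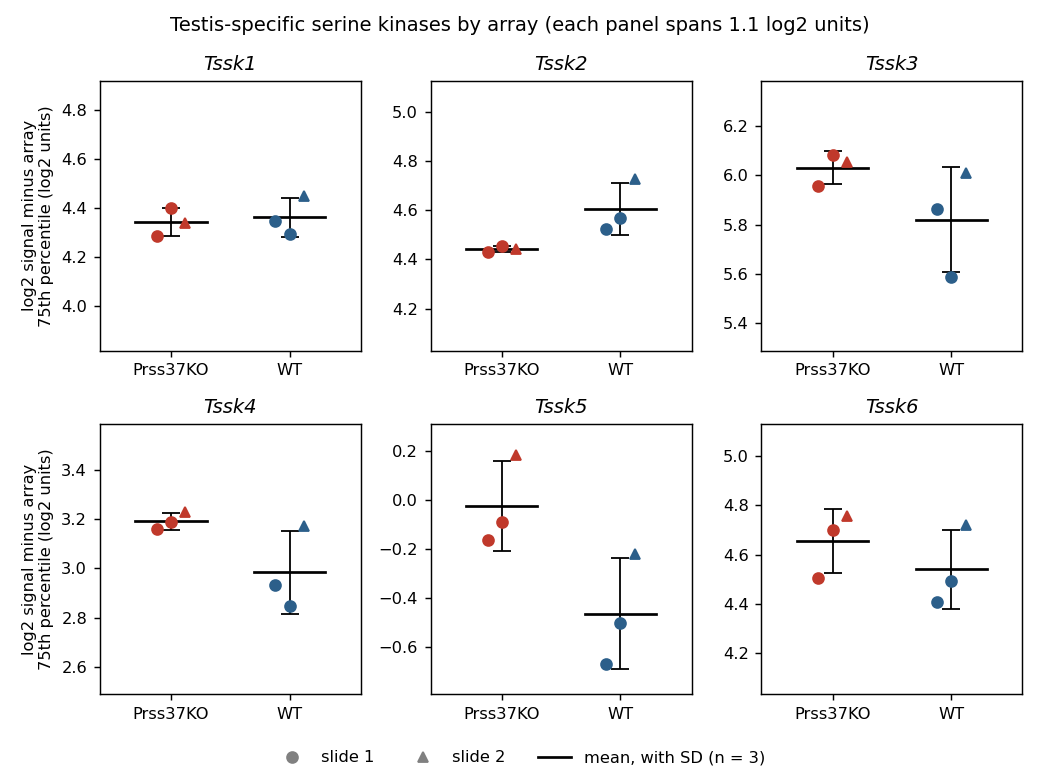
Scaled log2 signal (y axis, log2 units above the 75th percentile of the array) for each kinase on each Prss37KO array (left) and WT array (right), with circles for slide 1, triangles for slide 2, and the mean with its SD (n = 3). The 3 Tssk2 points of Prss37KO lie below the 3 of WT, the 3 Tssk5 points of Prss37KO lie above those of WT, and the WT triangle of slide 2 is the highest WT point in all 6 panels.

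Tssk1 and Tssk2 are neighbours in the same orientation on chromosome 16, with 2983 bases between the end of Tssk1 and the start of Tssk2 on GRCm38.p6. Tssk1 values were 4.29, 4.40 and 4.34 on the Prss37KO arrays, against 4.35, 4.29 and 4.45 on the WT arrays. The genotypes overlapped, with 2 of the 3 Prss37KO values inside the range of the WT values and replicate 1 just below it. The Tssk1 signal averaged 32462 ± 278 in Prss37KO and 33797 ± 3186 in WT testes (SD, n = 3 each), a log2 difference of -0.02 with a 95% interval from -0.16 to 0.12 (limma adjusted p = 0.859). Its sign differed between slides, at 0.02 on slide 1 and -0.11 on slide 2.

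For Tssk2, the values were 4.43, 4.46 and 4.44 on the Prss37KO arrays, against 4.52, 4.57 and 4.73 on the WT arrays. Every Prss37KO array lay below every WT array, with WT replicate 3 the farthest off. The signal averaged 34784 ± 902 in Prss37KO and 40037 ± 4489 in WT testes (SD, n = 3 each). That is a log2 difference of -0.16 (SE 0.061, 95% interval -0.31 to -0.02), 1.12-fold lower in Prss37KO. The unadjusted p was 0.0356 and the limma adjusted p over all genes 0.177, so the Tssk2 difference was not called. It was -0.11 on slide 1 and -0.28 on slide 2, and -0.10 without WT replicate 3.

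The second Tssk1 probe was named by a cDNA clone and lies at chr16:17897935-17897994 (mm9), between the Tssk1 and Tssk2 probes. It was well above background on 0 of 3 Prss37KO arrays and 1 of 3 WT arrays, so it was not tested. Its signals were 16.1, 11.3 and 16.5 on the Prss37KO arrays, against 14.4, 47.8 and 28.7 on the WT arrays. On the 3 Prss37KO arrays the probe thus gave no more than a bound on any transcript there.

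The promoters of the neighbouring kinases are shown because only Tssk2 of the pair had genotypes that did not overlap. RefSeq promoters of GRCm38.p6, from 250 bases before to 50 bases after the start, were matched for 5 of the 6 kinases, Tssk5 being the other. The best local alignment between Tssk1 and Tssk2 had 82 identical bases in 125 columns (65.6%), with a score of 29, against 11 to 18 for the other 9 pairs of these kinases. Below are 60 bases of each promoter around their longest shared run, which is in capitals: chr16:17894157-17894216 for Tssk1 and chr16:17898578-17898637 for Tssk2, both on the plus strand of GRCm38.p6.
Tssk1: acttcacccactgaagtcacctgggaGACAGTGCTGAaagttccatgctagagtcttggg
Tssk2: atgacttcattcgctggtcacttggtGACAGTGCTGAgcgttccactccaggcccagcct
The run GACAGTGCTGA starts 20 bases before the start of Tssk1 and 33 bases before that of Tssk2, and was found in 6 of 32851 promoters (0.0183%). These 6 include Tssk1 and Tssk2 themselves. The run was picked as the longest that these promoters share, so its presence in both was fixed and its share is not a test of the pair. The full cAMP response element TGACGTCA, the site bound by Crem and Creb1, was found on either strand in 0 of the 5 kinase promoters and in 1.79% of all promoters. Its shorter form TGACG, which is contained in the full element, was found in 1 of 5, Tssk6, and in 20.8% of all promoters. The variant TGACTTCA, chosen after the sequences had been seen, was found on either strand in Tssk1 and Tssk2 (2 of 5) and in 1.52% of all promoters. In the windows shown, Tssk1 holds it as the reverse complement TGAAGTCA and Tssk2 as TGACTTCA, so the orientations differ there. These matches describe letters in the windows searched and no binding was measured.

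Tssk3, a kinase of spermatids that Pdpk1 can phosphorylate, had values of 5.96, 6.08 and 6.05 on the Prss37KO arrays, against 5.86, 5.59 and 6.01 on the WT arrays. The genotypes overlapped because WT replicate 3 lay above Prss37KO replicate 1. The Tssk3 signal averaged 104636 ± 1208 in Prss37KO and 93414 ± 16841 in WT testes (SD, n = 3 each). The log2 difference was 0.21 (SE 0.111, 95% interval -0.06 to 0.48), with a limma adjusted p of 0.307. Slide 1 gave 0.30 and slide 2 gave 0.05, and it was 0.10 without WT replicate 2, the lowest of the WT arrays.

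Tssk4, which phosphorylates Odf2 of the sperm tail, was measured by 2 probes. The brighter one had values of 3.16, 3.19 and 3.23 on the Prss37KO arrays, against 2.93, 2.85 and 3.17 on the WT arrays. It averaged 14628 ± 426 in Prss37KO and 13046 ± 2077 in WT testes (SD, n = 3 each), a log2 difference of 0.21 (SE 0.088, 95% interval -0.01 to 0.42) with a limma adjusted p of 0.218. Only WT replicate 3 of the WT arrays reached the Prss37KO values. The dimmer Tssk4 probe averaged 10653 ± 483 in Prss37KO and 9553 ± 1107 in WT testes (SD, n = 3 each), and its log2 difference was 0.20 (SE 0.063, limma adjusted p over probes = 0.150, where 1.04% of all probes were called). On that probe all Prss37KO log2 values lay above all WT values, so the probes agreed in size but not in overlap. Slide 1 gave 0.29 and slide 2 gave 0.06 for the brighter probe, and slide 1 gave 0.26 and slide 2 gave 0.06 for the dimmer one.

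Tssk5 had values of -0.16, -0.09 and 0.18 on the Prss37KO arrays, against -0.67, -0.50 and -0.22 on the WT arrays. Every Prss37KO array lay above every WT array once each array was scaled, although the unscaled signals of Prss37KO replicate 2 and WT replicate 3 were in the other order. The Tssk5 signal averaged 1580 ± 194 in Prss37KO and 1200 ± 234 in WT testes (SD, n = 3 each). Its log2 difference of 0.44 (SE 0.141, 95% interval 0.10 to 0.79) was the largest in size among the 6 kinases, 1.36-fold higher in Prss37KO, and 95.7% of all genes had a smaller difference in size. The unadjusted p was 0.0204 and the limma adjusted p 0.137, so Tssk5 was not called. The Tssk5 difference was similar on both slides, 0.46 and 0.41, and a model with slide as a term gave an adjusted p of 0.0624.

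Tssk6, whose protein phosphorylates histones in vitro and is held by chaperones and the co-chaperone Tsacc, had values of 4.51, 4.70 and 4.76 on the Prss37KO arrays, against 4.41, 4.49 and 4.72 on the WT arrays. The genotypes overlapped. The signal averaged 40307 ± 2579 in Prss37KO and 38319 ± 5813 in WT testes (SD, n = 3 each), a log2 difference of 0.11 (SE 0.104, 95% interval -0.14 to 0.37) with a limma adjusted p of 0.554. It was 0.15 on slide 1 and 0.04 on slide 2.

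The spread within WT was the wider one for these kinases. The SD of the log2 values was smaller in Prss37KO than in WT for 6 of 6 kinases, and for 68.1% of all genes. The median SD of the kinases was 0.0614 in Prss37KO and 0.165 in WT, against 0.0541 in Prss37KO and 0.0863 in WT over all genes. WT replicate 3 was the highest WT array for 6 of 6 kinases and for 39.4% of all genes. The kinases' median difference of 0.16 became 0.25 without WT replicate 3 and 0.093 without WT replicate 2, and was 0.22 on slide 1 and 0.04 on slide 2, and the part of slide or of those arrays in these differences was not tested.

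**Figure D2:**
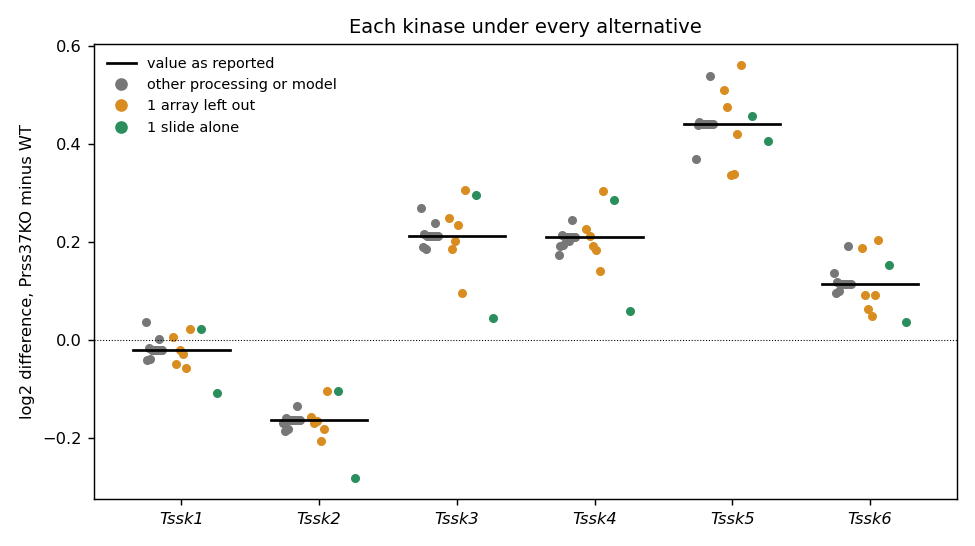
Log2 difference, Prss37KO minus WT (y axis), of each kinase (x axis) as reported (black line) and under the alternatives (points: other processing or model, 1 array left out, 1 slide alone). Tssk5 stays between 0.34 and 0.56 and Tssk2 between -0.28 and -0.10, while Tssk1 lies on both sides of 0.

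Tssk2 was then set against the other kinases within each array, which needs no scaling between arrays. This comparison was chosen after the values had been seen, and a ratio shows unequal change, not which of the genes changed. The level of a ratio also depends on the probes, so only its difference between genotypes is read. The log2 ratio of Tssk2 to Tssk4 was 1.27, 1.27 and 1.21 on the Prss37KO arrays, against 1.59, 1.72 and 1.56 on the WT arrays. All Prss37KO arrays lay below all WT arrays by a wide margin relative to their spread. The difference of this ratio was -0.37 (SE 0.054), 1.30-fold lower in Prss37KO, at -0.39 on slide 1 and -0.34 on slide 2. Among the ratios of Tssk2 to the other kinases, this difference was the largest relative to its SE.

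The same order held against each of the other kinases. These ratios all use the same Tssk2 values, which alone already separated the genotypes, so they are not separate results. The ratio of Tssk2 to its neighbour Tssk1 was 0.14, 0.05 and 0.10 on the Prss37KO arrays, against 0.17, 0.28 and 0.28 on the WT arrays, a difference of -0.14 (SE 0.042). The differences were -0.28 (SE 0.077) against Tssk6, -0.38 (SE 0.104) against Tssk3 and -0.61 (SE 0.126) against Tssk5. In none of these ratios did the genotypes overlap, and the exact two-sided permutation p was 0.1 for each, the smallest that 3 arrays against 3 allow. After Benjamini-Hochberg adjustment over the 15 pairs, this permutation p was 0.15. Of the 15 pairs that the 6 kinases form, 10 had ratios that did not overlap between genotypes, against 30.5% of all pairs of tested genes. The 15 pairs share 6 genes and are not independent. The pair of Tssk3 and Tssk4 lay at the other end, with a ratio that differed by 0.003 between genotypes (exact permutation p = 1).

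**Figure D3:**
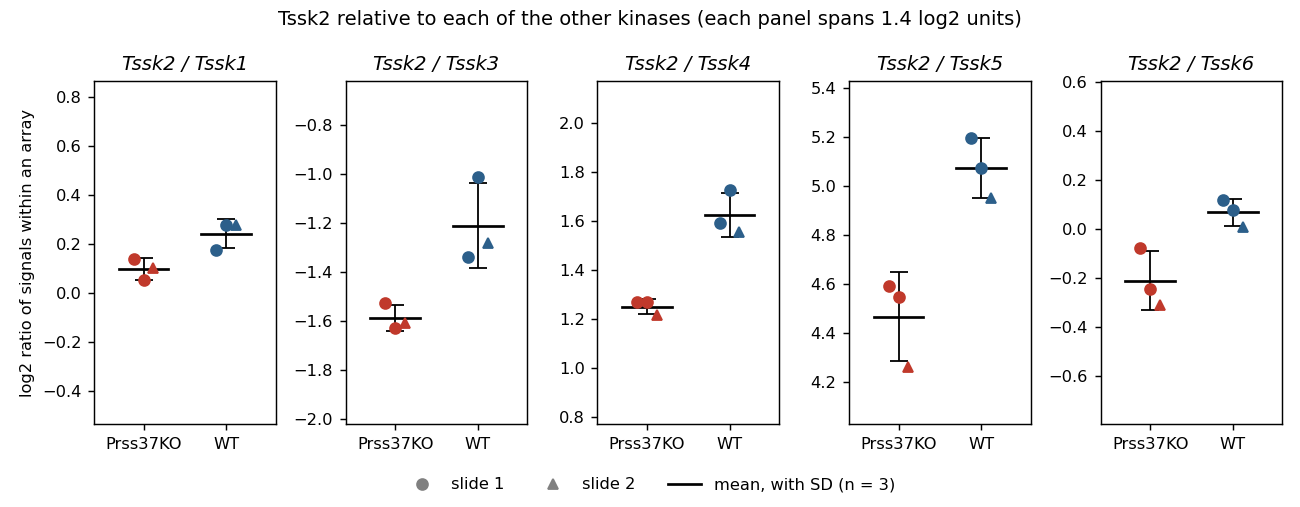
Log2 ratio of the Tssk2 signal to that of each of the other kinases within an array (y axis) on the Prss37KO arrays (left) and the WT arrays (right), with circles for slide 1, triangles for slide 2, and the mean with its SD (n = 3). In each of the 5 panels the 3 Prss37KO points lie below the 3 WT points, and the differences run from -0.61 (Tssk5) to -0.14 (Tssk1).

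The similarity of the kinases' profiles was measured over the 6 arrays by the root mean square distance between log2 values, each centred on its own mean. Tssk3 and Tssk4 were the closest pair at 0.063, and 0.295% of genes lay closer to Tssk3 than Tssk4 did. The neighbours Tssk1 and Tssk2 were 0.083 apart, and 30.3% of genes lay closer to Tssk1. The 2 nearest genes were Cacul1 (0.0077) and Pgap6 (0.0084) for Tssk1, Chn2 (0.0099) and Zfp35 (0.025) for Tssk2, and Tfg (0.040) and 1700010D01Rik (0.044) for Tssk3. They were Prkcq (0.021) and Oser1 (0.025) for Tssk4, Mroh7 (0.068) and Kif17 (0.074) for Tssk5, and Ppm1l (0.018) and Prr3 (0.024) for Tssk6. The median distance of all genes ran from 0.103 for Tssk1 to 0.287 for Tssk5. A small distance for a flat profile such as that of Tssk1 says mainly that both genes varied little.

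Of 13 partners and substrates of the kinases, all 13 were tested and 0 were called, against 2.46% of all genes. At an unadjusted p under 0.05 there were 2 of 13, H2ax and Crem, against 23.9% of all genes. The differences of 8 lay above 0 and of 5 below 0, with a median of 0.03 (-0.0087 without WT replicate 2), and the genotypes did not overlap for 4 of 13 (30.8%), against 31.6% of all genes. With a variance trend and robust fitting, which called more genes over the whole array, 1 of the 13 was called. Tsks, the substrate that joins Tssk1 and Tssk2 in late spermatids, averaged 121921 ± 2223 in Prss37KO and 120369 ± 10149 in WT testes (SD, n = 3 each; log2 difference 0.05, limma adjusted p = 0.631). Odf2, the outer dense fibre protein, differed by 0.09 (adjusted p = 0.549), and Spag16, an axoneme protein, by -0.03 (adjusted p = 0.760). Ppp1cc, the phosphatase with a sperm isoform, differed by -0.02 (adjusted p = 0.899).

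H2ax, the histone variant whose phosphorylated form has been linked to Tssk6 in mouse spermatids, had signals of 14159, 13215 and 13049 on the Prss37KO arrays, against 12385, 11619 and 11862 on the WT arrays. All Prss37KO arrays were the higher ones. The log2 difference of H2ax was 0.205 (SE 0.050), 1.15-fold higher in Prss37KO, with a limma adjusted p of 0.083, so it was not called. Crem, the transcription factor that switches on many genes of round spermatids, averaged 32059 ± 896 in Prss37KO and 30123 ± 2185 in WT testes (SD, n = 3 each; log2 difference 0.12, adjusted p = 0.159). The 5 other Crem probes also differed by values above 0, with 2 at an unadjusted p under 0.05. Creb1, a related factor, averaged 493 ± 24.5 in Prss37KO and 559 ± 38.5 in WT testes (SD, n = 3 each; log2 difference -0.15, adjusted p = 0.327).

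Pdpk1, the kinase that can activate Tssk3, differed by -0.13 (adjusted p = 0.280). The chaperone genes differed by 0.06 for Hsp90aa1 (adjusted p = 0.719), -0.001 for Hsp90ab1 (adjusted p = 0.990) and 0.03 for Hspa8 (adjusted p = 0.831). Tsacc, the co-chaperone of Tssk6, differed by 0.03 (adjusted p = 0.830), with 112672 ± 192 in Prss37KO and 113498 ± 13089 in WT testes (SD, n = 3 each). Izumo1, the sperm protein needed for fusion with the egg, whose place on sperm depends on Tssk6 in mice, differed by 0.09 (adjusted p = 0.337). None of these 6 genes passed the test.

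**Figure D4:**
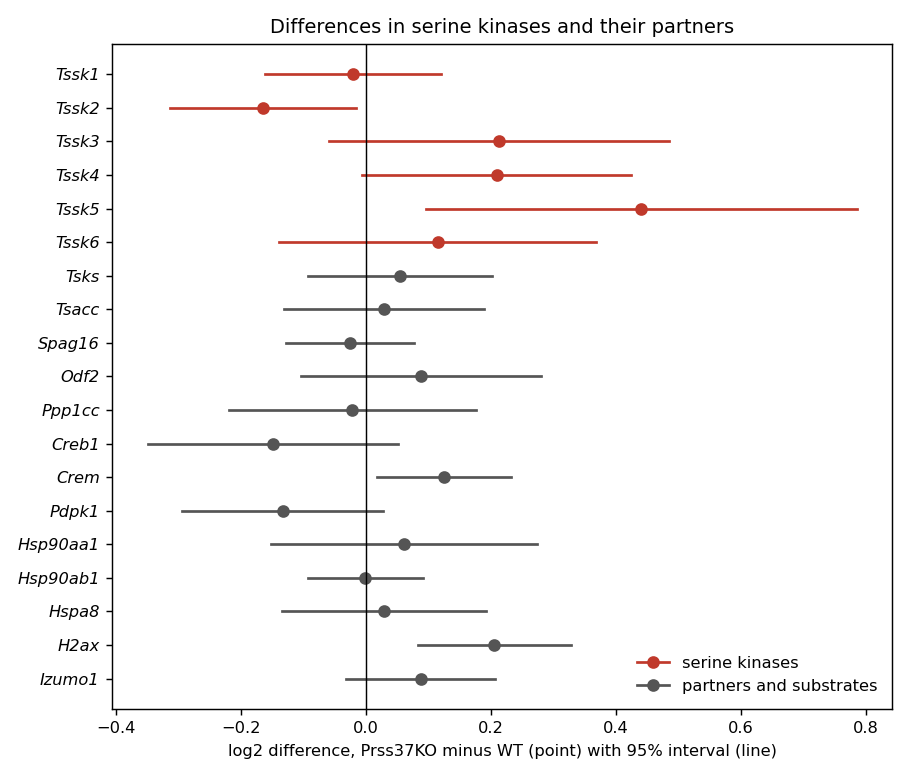
Log2 difference, Prss37KO minus WT (x axis; point), with its 95% interval (line) for the 6 kinases (coloured) and 13 partners and substrates (grey). Among the kinases the intervals of Tssk2 (-0.31 to -0.02) and Tssk5 (0.10 to 0.79) leave out 0, and none of the 19 genes passed the adjusted threshold.

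Of 25 other kinases of male germ cells, 3 were called higher in Prss37KO (12.0%), against 1.21% of all genes called higher, and 0 were called lower. At an unadjusted limma p under 0.05 there were 6 of 25, against 23.9% of all genes. The genotypes did not overlap for 8 of 25 (32%), against 31.6% of all genes, so both of these shares were near the background. Hipk4, a kinase needed for shaping the spermatid head, had signals of 5538, 4979 and 5517 on the Prss37KO arrays, against 3729, 4206 and 4157 on the WT arrays. It rose by 0.44 on the log2 scale (SE 0.064, 1.36-fold, limma adjusted p = 0.042). Limk2, a kinase of actin regulation, averaged 8434 ± 141 in Prss37KO and 6991 ± 417 in WT testes (SD, n = 3 each), a rise of 0.31 (SE 0.044, adjusted p = 0.042), while its other probe differed by 0.12 and had an unadjusted p above 0.05. Tesk2, a kinase related to Limk2, averaged 8240 ± 460 in Prss37KO and 6850 ± 483 in WT testes (SD, n = 3 each), a rise of 0.30 (SE 0.050, adjusted p = 0.046). In a model with slide as a term the adjusted p was 0.063 for Hipk4, 0.062 for Limk2 and 0.073 for Tesk2. Of the 25, 0 were called without any 1 of the Prss37KO arrays or without WT replicate 1, and 1 (Limk2) without WT replicate 3. None was called without the filter on dim probes, with the replicate number as a block or on slide 1 alone. Over 19 alternative settings, Hipk4 and Limk2 were not called in 9 each and Tesk2 in 12. Hipk4 differed by about as much as Tssk5, at 0.44 each, but its SE in the main fit was 0.064 against 0.141 for Tssk5. With slide as a term the SE of Tssk5 was 0.060, and the limma adjusted p was 0.0624 for Tssk5 and 0.063 for Hipk4. Whether Hipk4, Limk2 and Tesk2 differ from the testis-specific serine kinases was not tested.

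The cells that make these kinases were checked by marker lists, with 0 called in each in the main fit. The round spermatid list had 1 called with a variance trend and robust fitting, with array weights and without WT replicate 3. Late spermatid markers had a median difference of 0.09 (10 of 11 tested above 0), and their summed level was 1451 to 1620 in Prss37KO and 1449 to 1544 in WT, as multiples of the array's 75th percentile. Odf1 (0.29, adjusted p = 0.130) and Spem1 (0.18, adjusted p = 0.216) had the smallest p among them. Round spermatid markers had a median of 0.12 (6 of 6 above 0) and summed levels that did not overlap, 141 to 144 in Prss37KO and 127 to 136 in WT, with Catsper3 (0.25, adjusted p = 0.064) and Sun5 (0.23, adjusted p = 0.131) of smallest p. These shifts lie in the direction of Tssk3, Tssk4, Tssk5 and Tssk6 and opposite to Tssk2, and their part in the kinases' differences was not tested. Spermatocyte markers had a median of 0.06 (6 of 8 above 0), with Spo11 (-0.10, adjusted p = 0.190) and Sycp1 (0.15, adjusted p = 0.204) of smallest p.

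Among earlier germ cells, spermatogonia markers had a median of -0.003 (3 of 6 tested above 0), with Stra8 (-0.42, adjusted p = 0.058) and Uchl1 (-0.19, adjusted p = 0.111) of smallest p. Their summed levels were 14.6 to 14.8 in Prss37KO and 16.2 to 18.3 in WT. These sums rest mainly on Uchl1 and Stra8, the brightest genes of the list, and do not stand for the list as a whole. Sertoli cell markers had a median of 0.02 (Rhox5 0.26, adjusted p = 0.060; Fshr -0.19, adjusted p = 0.119). Leydig cell markers had a median of -0.04 (Cyp11a1 -0.25, adjusted p = 0.209; Star -0.23, adjusted p = 0.620). Macrophage markers lay above 0 for 8 of 8 tested, with summed levels of 12.1 to 15.4 in Prss37KO and 9.39 to 12.4 in WT (Cd163 0.36, adjusted p = 0.072; Csf1r 0.16, adjusted p = 0.152). The macrophage sums rest mainly on Lyz2, the brightest gene of that list, whose genotypes overlapped (0.31, limma adjusted p = 0.325). Of 6 epididymis markers, 1 was tested (Rnase10, a difference of 0.24) and 5 were too dim to test.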

How the data were processed

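Total RNA of whole testis had been amplified, labelled with Cy3 and hybridised per the labels' protocols. The authors deposited spot intensity values, written by version 10.7.3.1 of Agilent Feature Extraction per the file headers, whose processed signal already had its background removed, along with other per-spot columns such as flags and probe positions (mm9). A log2 table was also deposited by the authors. Its columns each had a median of 7.72, and their sorted values differed by at most 0.00125 from those of the first column, as quantile normalization would leave them. Each column correlated with the log2 processed signals of its array at r = 0.99987 or higher. The deposited values were not compared directly with quantile-normalized signals. Each array held 43379 spots other than controls, and the 75th percentile signal was 1550 to 1707. The number of arrays limits the precision.

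Control spots and outlier-flagged spots (86 to 159 per array) were left out. Spots of a probe were averaged as log2 processed signal, with each array's 75th percentile subtracted. Probes that all unflagged arrays of either genotype measured well above background, with at least 2 values per genotype, were tested (28301), and the brightest stood for a gene (18975). Names came from a GRCm38.p6 RefSeq table by accession (27668 probes), symbol (5589) or synonym (471), and 7446 kept the file's name. Fits used limma 3.58.1 (lmFit, eBayes; R 4.3.3) with Benjamini-Hochberg adjustment, and were tested on simulated data. The series gives n as mice, so arrays were taken as separate animals.

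The members and gene lists were chosen with earlier results of these data known. The genes named are the kinases, every partner or substrate, up to 4 called members of each other list or, failing any, the 2 of smallest p, Prss37, Prss55, and the 2 nearest profiles per kinase. Alternatives changed the background correction, normalization, filters, probe rule, variance model, array weights, block, slide and arrays included.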

Additional observations from a re-analysis of the deposited data

How the results depend on the processing

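None of the 6 kinases was called under any alternative, and the smallest adjusted p was 0.0563 (Tssk4 without WT replicate 3, difference 0.30). Tssk1 changed sign with normexp background correction (0.036), with array weights (0.0017) and on slide 1 alone (0.023), and ran from -0.057 to 0.022 with 1 array left out. With 1 array left out, Tssk2 ran from -0.21 to -0.10, Tssk3 from 0.10 to 0.31, Tssk4 from 0.14 to 0.30, Tssk5 from 0.34 to 0.56 and Tssk6 from 0.05 to 0.20. Slide 2 alone, 1 array per genotype and so without a test, gave -0.11 for Tssk1, -0.28 for Tssk2, 0.045 for Tssk3 and 0.058 for Tssk4.

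The count of genes called over the whole array, 230 higher and 237 lower, was less stable. Without a filter for dim spots it was 2 higher and 6 lower, and averaging each gene's probes gave 125 higher and 150 lower. Trended variance with robust fits gave 691 higher and 579 lower, weighting the arrays 644 higher and 529 lower, slide as a model term 30 higher and 49 lower, and slide 1 by itself 6 higher and 21 lower. With the replicate number as a block it was 0 higher and 2 lower. With 1 array left out it ran from 0 to 442 higher and from 2 to 337 lower. The cause was not tested. Same-numbered arrays deviated from their genotype means with correlations of -0.03, -0.03 and 0.16, the last being the pair on slide 2. The numbers were not taken as pairs. No testis-specific serine kinase was called in the main fit or with the replicate block, where 0.0105% of all genes were called. Calls therefore cannot show what the block does to these kinases. With the block the SE fell from 0.141 to 0.051 for Tssk5 and from 0.104 to 0.057 for Tssk6, and rose from 0.057 to 0.064 for Tssk1. Differently numbered arrays of slide 1 had correlations of 0.14 and 0.11, and arrays on different slides had -0.14 to -0.06. The part of slide in these correlations was not tested. Under the replicate block Tssk2 had an adjusted p of 0.243 and Tssk5 of 0.133. The difference in the ratio of Tssk2 to Tssk4 ran from -0.41 to -0.32 over the alternatives and that to Tssk1 from -0.20 to -0.12, an analysis chosen after seeing the data. Probe signals near background limit the second Tssk1 probe, and 3 arrays per genotype limit the rest.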

Other observations

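The AMPK-related kinases, the wider family to which the testis-specific serine kinases belong, were read in the same fit. Of 14 tested, 0 were called, against 2.46% of all genes, and 5 had an unadjusted limma p under 0.05, against 23.9% of all genes. The genotypes did not overlap for 7 of 14, against 31.6% of all genes, and the median difference was 0.02, with 8 above 0 and 6 below. Brsk2, a kinase known for its role in neuron polarity, averaged 4420 ± 282 in Prss37KO and 3649 ± 208 in WT testes (SD, n = 3 each; log2 difference 0.31, limma adjusted p = 0.062). Mark3, a kinase that phosphorylates microtubule-associated proteins, averaged 6535 ± 240 in Prss37KO and 5455 ± 296 in WT testes (SD, n = 3 each; log2 difference 0.29, adjusted p = 0.070). The count called in this list was 2 with a variance trend and robust fitting, with array weights and without WT replicate 2, and 1 with normexp.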
